A study of Bos taurus with 4 samples.

Results

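The 10 genes described here handle iron and zinc: SLC11A2, SLC40A1, CYBRD1, HEPH, TFRC, FTH1 and FTL for iron, and SLC39A4, SLC30A1 and MT2A for zinc. They were chosen by name, as genes of metal uptake, storage and export, and all 10 were found, each on 1 of the 29792 rows of the deposited read counts. RNA was measured in 4 libraries, 1 each of intestinal tissue (intestine), muscle, intestinal organoids at passage 5 (P5) and intestinal organoids at passage 10 (P10), all from Hanwoo cows over 24 months old with no further treatment named. The organoids were grown from jejunal crypts in Matrigel with IntestiCult medium, so they started from epithelium, whereas the intestine library held whole tissue. Each group is a single library, so the differences have no replicate check and p-values are not given.

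Dietary iron enters the enterocyte in its reduced form. CYBRD1 (duodenal cytochrome b) reduces ferric iron at the brush border, and SLC11A2 (DMT1) carries ferrous iron into the cell. There it is held in ferritin, a shell of FTH1 and FTL chains, or leaves across the basolateral membrane through SLC40A1 (ferroportin), the known cellular iron exporter, with HEPH (hephaestin) oxidising it for transferrin. TFRC, the transferrin receptor, brings transferrin-bound iron into cells and is abundant in dividing cells. Zinc enters through SLC39A4 (ZIP4), leaves through SLC30A1 (ZnT1) and is bound by MT2A, a metallothionein. Iron regulatory proteins bind the messengers of TFRC and ferritin: when iron is scarce they stabilise the former and block translation of the latter, so part of ferritin control does not appear in RNA counts. The factor MTF1 senses zinc and induces metallothioneins and SLC30A1.

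Total reads ranged from 12917720 in muscle to 17776273 in intestine, and 3 reads, treated as the floor, corresponded to 0.169 to 0.232 CPM (counts per 1e6 reads of the library). The library labelled muscle carried all 8 skeletal muscle markers (49050 CPM summed), which summed to 2.20 to 3.66 CPM elsewhere. All 10 epithelial markers were present in the gut libraries (intestine and both organoids), at 3173 CPM in intestine, 12595 CPM in P5 and 10348 CPM in P10 organoids. Stromal markers summed to 1180 CPM in intestine, 4.49 CPM in P5 and 0.282 CPM in P10 organoids, smooth muscle markers to 2275, 12.6 and 7.56 CPM, and endothelial markers to 55.0, 3.68 and 3.44 CPM. Leukocyte markers summed to 864, 6.47 and 3.67 CPM in the same order, with C1QA, C1QB and C1QC at 0 in both organoid libraries. In bulk RNA, fewer cells of a type and less RNA per cell cannot be told apart.

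Together the 10 genes took 0.320% of the reads at P5, 0.354% at P10, 0.178% in intestine and 0.103% in muscle. The ferritin genes made up 70.8% to 89.5% of these reads. Levels below are given as reads and CPM, with 95% Poisson intervals. PCR copies of 1 molecule are counted separately, so every interval reflects the counting of reads alone. Such intervals can be narrower than the counting error of molecules. Differences are on the scale log2(value + 1) of quantile-normalised counts, with a 95% counting interval. The methods of the study name quantile normalisation with edgeR, which could also mean upper-quartile factors, and these were run as an alternative. A difference was called when it reached 2-fold and the higher of both libraries had at least 50 reads.

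SLC11A2, the ferrous iron importer, was the member that stood highest above intestine in P5 organoids. In P10 organoids it was far closer to intestine, and TFRC (log2 difference 1.06) lay within its counting interval. SLC11A2 had 403 reads in intestine (22.7 CPM, interval 20.5 to 25.0), 104 in muscle (8.05 CPM, 6.58 to 9.76), 4306 in P5 organoids (317 CPM, 307 to 326) and 1036 in P10 organoids (58.4 CPM, 54.9 to 62.1). The 4 intervals did not overlap, and P5 organoids lay above each of the others. P5 organoids were 12.9-fold above intestine (log2 difference 3.69, counting interval 3.55 to 3.87), a difference larger than that of 97.9% of all rows with at least 50 reads. P10 organoids were 2.19-fold above intestine (1.13, 0.96 to 1.32) and 5.92-fold below P5 organoids (-2.56, -2.67 to -2.45). Across the library-size scalings run as alternatives, the difference of P5 organoids from intestine stayed between 3.63 and 3.81.

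CYBRD1, the ferric reductase that works beside SLC11A2 at the brush border, showed the opposite order among the gut libraries. Intestine had 329 reads (18.5 CPM, 16.6 to 20.6), muscle 83 (6.43 CPM, 5.12 to 7.97), P5 organoids 14 (1.03 CPM, 0.563 to 1.73) and P10 organoids 95 (5.36 CPM, 4.33 to 6.55). It was therefore lowest in the library where SLC11A2 was highest. P5 organoids were 14.6-fold below intestine (log2 difference -3.87, -4.77 to -3.13), and P10 organoids 3.40-fold below (-1.77, -2.07 to -1.48). P10 organoids stood 4.30-fold above P5 organoids (2.10, 1.34 to 3.02), a larger difference than that of 98.2% of rows. The P5 value rests on 14 reads, which is above the floor of 3.

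**Figure D1:**
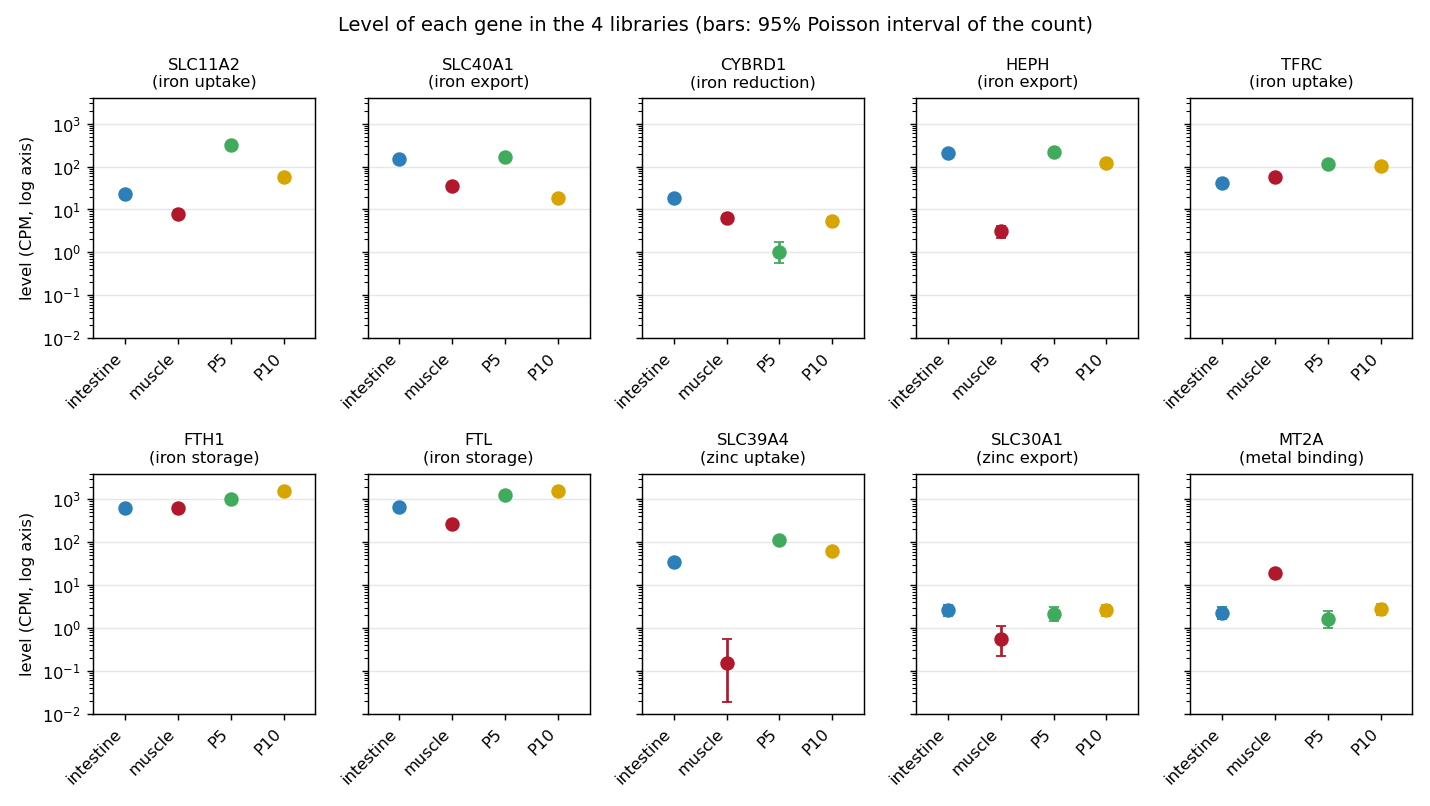
Level of each of the 10 genes in the 4 libraries, in CPM on a log axis shared by all panels, with 1 point per library and bars for the 95% Poisson interval of the count (hidden by the point where narrower). SLC11A2 peaks in P5 organoids at 317 CPM, where CYBRD1 is lowest at 1.03 CPM; SLC40A1 is lowest in P10 organoids at 18.5 CPM; MT2A is highest in muscle at 18.7 CPM.

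Markers of enterocytes, the cells in which both genes work, also differed between these libraries. The 10 enterocyte markers summed to 32858 CPM in intestine, 4684 CPM in P5 organoids and 292 CPM in P10 organoids, and ALPI was at 0 in both organoid libraries, with APOA1 and APOA4 also at 0 at P10. The enterocyte sum thus stepped down from intestine to P5 to P10, but FABP1 held 341994 of its 584100 reads in intestine. ANPEP and SI were highest at P5: ANPEP had 125 reads in intestine, 28104 at P5 and 243 at P10, and SI 2288, 6210 and 797. Of the 8 markers with enough reads, these 2 were called higher at P5 than in intestine and 6 lower. At P10, 1 was called higher than in intestine (ANPEP) and 7 lower. The part of enterocytes in the SLC11A2 and CYBRD1 levels was not tested.

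TFRC, which takes up transferrin-bound iron, was higher in both organoid libraries than in intestine and nearly level between the passages. There were 756 reads in intestine (42.5 CPM, 39.6 to 45.7), 740 in muscle (57.3 CPM, 53.2 to 61.6), 1588 in P5 organoids (117 CPM, 111 to 123) and 1861 in P10 organoids (105 CPM, 100.2 to 109.8). The log2 difference from intestine was 1.25 at P5 (1.13 to 1.39) and 1.06 at P10 (0.94 to 1.19), or 2.38-fold and 2.09-fold. P10 minus P5 was -0.19 (-0.29 to -0.09). The 10 markers of dividing cells, in which TFRC is known to be abundant, summed to 139 CPM in intestine, 707 CPM at P5 and 1395 CPM at P10. The part of dividing cells in the TFRC level was not tested.

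The ferritin genes, which encode the heavy chain with ferroxidase activity (FTH1) and the light chain (FTL), were more abundant in organoids than in intestine. FTH1 had 11505 reads in intestine (647 CPM, 635 to 659), 8175 in muscle (633 CPM, 619 to 647), 13865 in P5 organoids (1020 CPM, 1003 to 1037) and 28437 in P10 organoids (1604 CPM, 1585 to 1623). FTL had 11650 reads in intestine (655 CPM, 644 to 667), 3516 in muscle (272 CPM, 263 to 281), 16923 in P5 organoids (1244 CPM, 1226 to 1263) and 27746 in P10 organoids (1565 CPM, 1547 to 1583). In CPM the order was P10, P5, intestine for both chains, and muscle shared the intestine level for FTH1 only. The quantile-normalised log2 difference from intestine was 0.71 for FTH1 (0.62 to 0.77) and 1.18 for FTL (1.14 to 1.24) at P5, and 0.98 (0.95 to 1.02) and 0.87 (0.85 to 0.95) at P10. Between the passages FTH1 was 0.27 higher at P10 (0.21 to 0.36), while FTL was -0.31 (-0.37 to -0.23) and changed sign to between 0.22 and 0.33 under every library-size scaling, so its direction between passages is not settled. The calls near 2-fold also moved with scaling: FTL at P5 lay between 0.75 and 1.18, and at P10 FTH1 lay between 0.98 and 1.31 and FTL between 0.87 and 1.26. Reads that align to several places were counted, and ferritin genes have processed copies in mammalian genomes, so both counts are uncertain to that extent.

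SLC40A1, the iron exporter, was close to intestine at P5 and far lower at P10. It had 2633 reads in intestine (148 CPM, 143 to 154), 446 in muscle (34.5 CPM, 31.4 to 37.9), 2238 in P5 organoids (165 CPM, 158 to 172) and 328 in P10 organoids (18.5 CPM, 16.6 to 20.6). P5 organoids differed from intestine by -0.06 on the log2 scale, within counting error (-0.16 to 0.02). In CPM the ratio of P5 organoids to intestine was 1.11 (exact interval 1.05 to 1.18), a small difference past counting error. P10 organoids, the lowest library, were below muscle as well. P10 organoids were 10.02-fold below intestine (log2 difference -3.32, -3.49 to -3.16) and 9.58-fold below P5 organoids (-3.26, -3.42 to -3.09); only 1.22% of rows lay further down between the passages. The P10 to P5 difference lay between -3.26 and -3.15 across the library-size scalings. Macrophages also express this gene, and the leukocyte markers were at 864 CPM in intestine and 6.47 and 3.67 CPM in P5 and P10 organoids. Their part in the SLC40A1 level was not tested.

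HEPH, the ferroxidase that works with the exporter, was an intestinal gene in these libraries but did not follow SLC40A1 between passages. It had 3647 reads in intestine (205 CPM, 199 to 212), 40 in muscle (3.10 CPM, 2.21 to 4.22), 2974 in P5 organoids (219 CPM, 211 to 227) and 2118 in P10 organoids (119 CPM, 114 to 125). Muscle was far below the 3 gut libraries. P5 organoids differed from intestine by -0.19 on the log2 scale (-0.26 to -0.11), a sign that turned to 0.09 in CPM. P10 organoids were -1.09 from intestine (-1.17 to -1.01) and -0.90 from P5 organoids (-0.99 to -0.82). The former passed 2-fold with quantile normalisation but weakened to -0.78 in CPM. Set against SLC40A1, the passage difference of HEPH was small.

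SLC39A4, the zinc importer whose loss causes acrodermatitis enteropathica in humans, was present in all gut libraries and nearly absent from muscle. There were 607 reads in intestine (34.1 CPM, 31.5 to 37.0), 2 in muscle (0.155 CPM, 0.0188 to 0.559), 1544 in P5 organoids (114 CPM, 108 to 119) and 1082 in P10 organoids (61.0 CPM, 57.4 to 64.8). Muscle was at the floor, and none of the gut intervals overlapped. P5 organoids were 2.88-fold above intestine (log2 difference 1.53, 1.39 to 1.67), P10 organoids 1.48-fold (0.57, 0.42 to 0.72), and P10 minus P5 was -0.96 (-1.08 to -0.84). The last lay between -1.004 and -0.895 across the library-size scalings, at the edge of 2-fold.

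SLC30A1 and MT2A, the MTF1 targets among the members, had few reads in every gut library. SLC30A1, the zinc exporter, had 47 reads in intestine (2.64 CPM, 1.94 to 3.52), 7 in muscle (0.542 CPM, 0.218 to 1.12), 29 in P5 organoids (2.13 CPM, 1.43 to 3.06) and 47 in P10 organoids (2.65 CPM, 1.95 to 3.52). It had under 50 reads in every library and so entered no call. The gut intervals overlapped in CPM, and the CPM ratio to intestine was 0.807 at P5 (exact interval 0.490 to 1.31) and 1.003 at P10 (0.655 to 1.54), so a difference was not detectable at this depth. MT2A had 40 reads in intestine (2.25 CPM, 1.61 to 3.06), 22 in P5 organoids (1.62 CPM, 1.01 to 2.45) and 48 in P10 organoids (2.71 CPM, 1.996 to 3.59), against 242 in muscle (18.7 CPM, 16.4 to 21.2). The CPM ratio of MT2A to intestine was 0.719 at P5 (0.407 to 1.24) and 1.20 at P10 (0.774 to 1.88), also not separable. Quantile normalisation gave 1.02 for MT2A at P10 against intestine and 0.77 for SLC30A1, values that lay as low as 0.01 and -0.24 under other scalings, because it set a low count higher in P10 organoids than in intestine: 1 read had a log2 value of 2.09 in P10 organoids and 0.32 in intestine. Metallothionein genes are close copies of each other, so reads with several alignments may be counted on more than 1 of them.

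**Figure D2:**
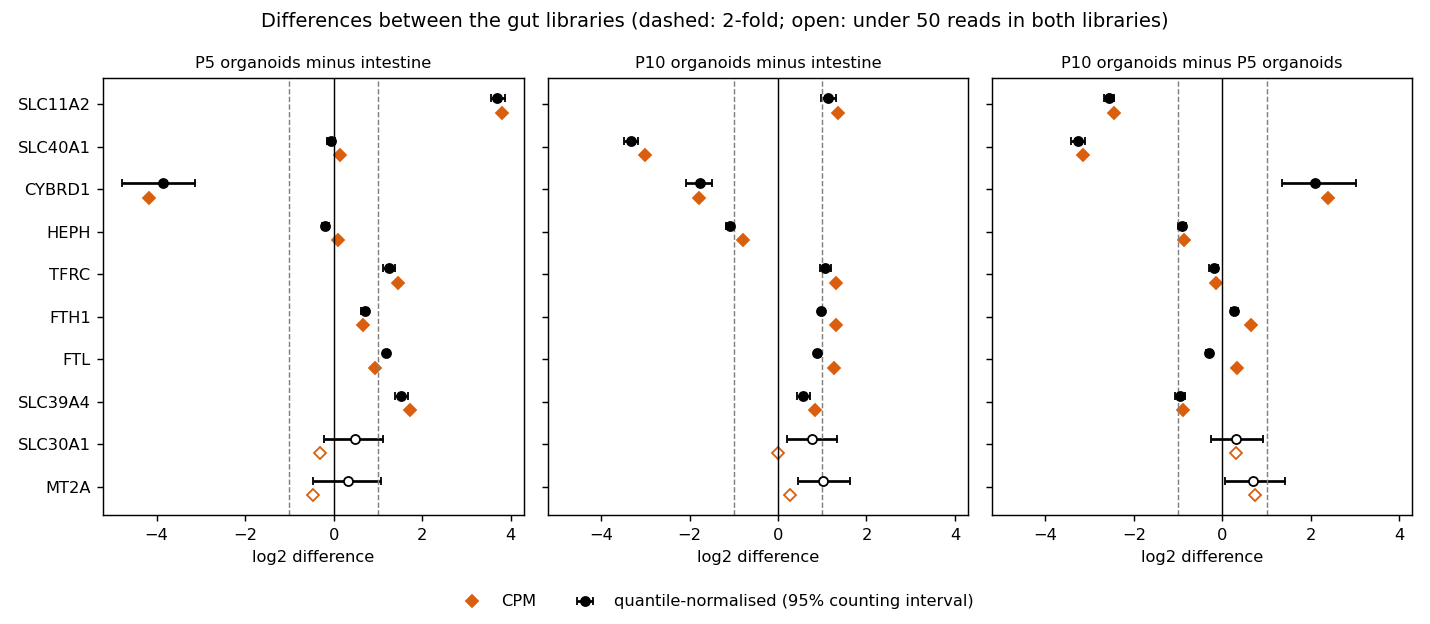
Log2 differences between the gut libraries for the 10 genes, with circles for quantile-normalised counts with their 95% counting interval, diamonds for the CPM ratio, dashed lines at 2-fold and open symbols where both libraries had under 50 reads. SLC11A2 lies at 3.69 and CYBRD1 at -3.87 in P5 organoids against intestine, and SLC40A1 at -3.26 between the passages; HEPH, SLC40A1, SLC30A1 and MT2A at P5 against intestine and FTL between the passages lie on opposite sides of 0 on both scales.

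Counted together, 8 members had at least 50 reads in P5 organoids or intestine, and 4 of them were called higher at P5 (SLC11A2, TFRC, FTL and SLC39A4), 1 lower (CYBRD1) and 3 within 2-fold (SLC40A1, HEPH and FTH1). Of all 14060 rows tested in the same way, 20.2% were called higher and 20.2% lower. At P10 against intestine, 2 were higher (SLC11A2 and TFRC), 3 lower (SLC40A1, CYBRD1 and HEPH) and 3 within 2-fold, beside 25.5% of all rows higher and 23.6% lower. Both comparisons share the intestine library. Between the passages, 1 member was higher at P10 (CYBRD1), 2 were lower (SLC11A2 and SLC40A1) and 5 lay within 2-fold, beside 12.6% and 12.2% of all rows. The median log2 difference of the 10 members was 0.59 at P5 and 0.82 at P10 against intestine and -0.25 between the passages. These medians include SLC30A1 and MT2A, which had under 50 reads in each gut library. Among all rows with at least 50 reads the median was 0.07, 0.10 and 0.09, so the filters differ and the medians are not directly comparable.

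Stromal, smooth muscle, endothelial and leukocyte markers were lower in the organoids than in intestine. The summed epithelial markers were 3.97-fold higher in CPM at P5 than in intestine. Division by the reads of these 10 markers, a scale chosen after the data were seen, moved all genes down together: the median of all rows with at least 50 reads became -1.86 at P5 and -1.46 at P10 against intestine, with 80.3% of rows called lower and 2.55% higher at P5. On this scale SLC11A2 stayed above intestine at P5 (log2 difference 1.81) but not at P10 (-0.34). At P5, TFRC was at -0.53, FTH1 at -1.33, FTL at -1.06 and SLC39A4 at -0.26, below 0 but above the median of all rows. SLC40A1 (-1.84) and HEPH (-1.90) lay close to that median, and CYBRD1 (-6.04) far below it. Of these 10 markers, 9 were themselves called higher at P5 than in intestine. Between the passages, where P10 had 0.822 times the marker CPM of P5, SLC11A2 (-2.15), SLC40A1 (-2.86) and CYBRD1 (2.56) kept their calls.

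Between intestine and muscle, members were called in both directions, and 4 of the 9 with at least 50 reads lay within 2-fold (SLC11A2, CYBRD1, FTH1 and FTL). HEPH was 29.2-fold higher in intestine (log2 difference 4.87, 4.44 to 5.41), and SLC40A1 2.35-fold (1.23, 1.10 to 1.36). For SLC39A4, which rested on 2 muscle reads, the CPM ratio of intestine to muscle was 221 (exact interval 60.8 to 1825). MT2A and TFRC lay on the other side: MT2A was 26.1-fold lower in intestine (-4.71, -5.25 to -4.22) and TFRC 2.30-fold lower (-1.20, -1.34 to -1.07). In all, 3 members were called higher and 2 lower in intestine than in muscle (30.6% and 24.0% of all rows), 5 and 2 in P5 organoids (31.6% and 24.2%), and 4 and 3 in P10 organoids (34.6% and 24.6%). These comparisons share the muscle library, in which the 18S ribosomal RNA gene RN18S1 took 23.6% of the reads, against 0.264% to 4.81% elsewhere.

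The muscle comparisons depended more on scaling than the others. The median log2 difference of all rows with at least 50 reads from muscle was 0.11, 0.14 and 0.25 in intestine, P5 and P10 organoids with quantile normalisation, and 1.28, 1.35 and 1.54 in CPM. Of the rows called, 56.0%, 56.6% and 58.4% were higher than muscle with quantile normalisation, against 85.4%, 80.6% and 81.3% in CPM and 80.3%, 76.0% and 76.5% in CPM without RN18S1. HEPH and SLC39A4 above muscle and MT2A below it held under all of these in each gut library, with intestine minus muscle between 4.86 and 6.02, between 6.33 and 7.29 and between -4.71 and -3.02. TFRC, by contrast, lay between -1.60 and -0.43 in intestine and between -0.56 and 0.87 in P10 organoids, and FTH1 had no settled direction against muscle in any gut library. SLC40A1 stayed above muscle in intestine but under 2-fold with upper-quartile factors (0.92) and DESeq2 size factors (0.99), and likewise in P5 organoids (0.93 and 0.97). SLC11A2 in intestine minus muscle ranged from 0.26, within counting error, to 1.49 in CPM.

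Ratios of reads of 2 genes within a library use neither the library total nor a normalisation, and only their change between libraries is read here. SLC11A2 reads per SLC40A1 read, the importer over the exporter, were 0.153 in intestine (exact 95% interval 0.137 to 0.170), 0.233 in muscle (0.187 to 0.289), 1.92 in P5 organoids (1.83 to 2.03) and 3.16 in P10 organoids (2.79 to 3.59). Both organoid libraries thus lay far above both tissues. With quantile normalisation and the library-size scalings, SLC11A2 differed more from intestine at P5, and SLC40A1 differed more at P10. Per epithelial marker read, the P5 differences from intestine were of like size, at 1.81 for SLC11A2 and -1.84 for SLC40A1. The ratio alone does not say which gene differed. CYBRD1 per SLC11A2 was 0.816 in intestine (0.704 to 0.947), 0.798 in muscle (0.591 to 1.08), 0.00325 at P5 (0.00178 to 0.00546) and 0.0917 at P10 (0.0735 to 0.113), so the tissues were alike within counting error and the organoids were not. HEPH per SLC40A1 did not differ beyond counting error between intestine at 1.39 (1.32 to 1.46) and P5 organoids at 1.33 (1.26 to 1.40), and was 6.46 at P10 (5.75 to 7.28) and 0.0897 in muscle (0.0632 to 0.124).

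The ratio of FTH1 to FTL reads set muscle apart from the gut libraries. FTH1 per FTL was 2.33 in muscle (2.23 to 2.42), 0.988 in intestine (0.962 to 1.01), 0.819 at P5 (0.801 to 0.838) and 1.02 at P10 (1.01 to 1.04). TFRC per FTH1, receptor over store, was the same within counting error in intestine, at 0.0657 (0.0610 to 0.0707), and P10 organoids, at 0.0654 (0.0624 to 0.0686), and was higher in muscle at 0.0905 (0.0838 to 0.0976) and P5 organoids at 0.115 (0.109 to 0.121). On the zinc side, SLC39A4 per SLC30A1 was 12.9 in intestine (9.59 to 17.8), 53.2 at P5 (36.9 to 79.8) and 23.0 at P10 (17.2 to 31.5), against 0.286 in muscle (0.0290 to 1.50) on 2 and 7 reads. MT2A per SLC30A1 was 34.6 in muscle (16.5 to 86.9) and between 0.759 and 1.02 in the gut libraries, whose intervals overlapped.

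**Figure D3:**
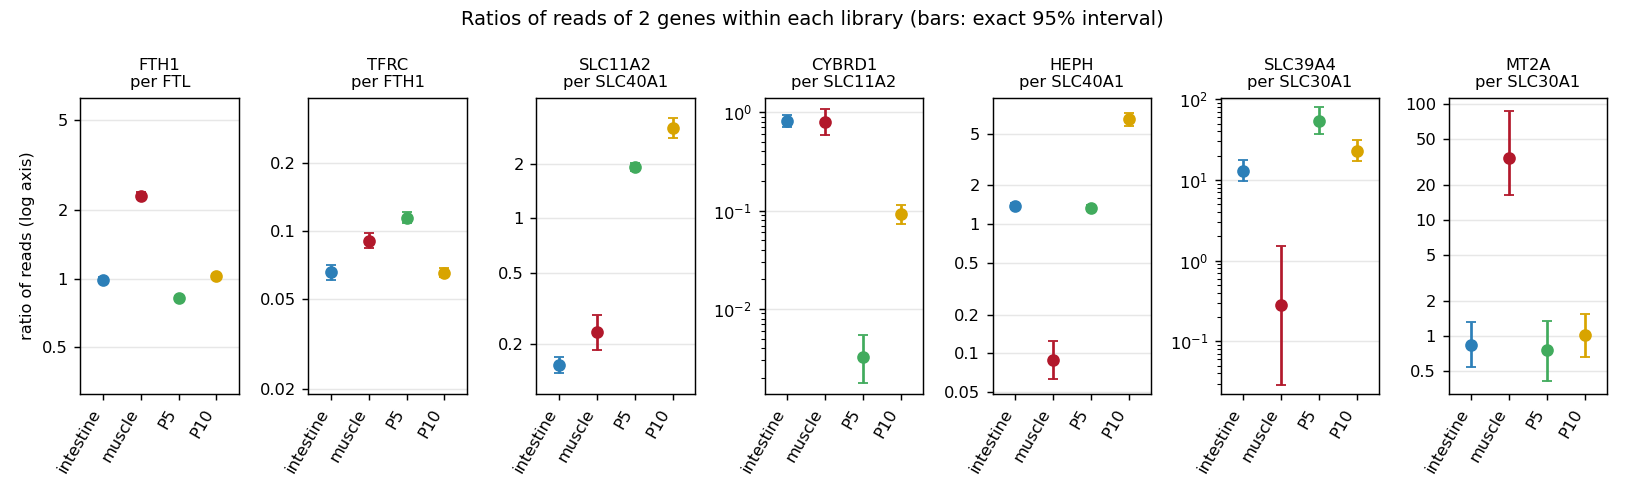
Ratios of reads of 7 pairs of genes within each library, on log axes that differ between panels, with bars for the exact 95% interval. SLC11A2 per SLC40A1 lies at 1.92 and 3.16 in the organoids against 0.153 in intestine; CYBRD1 per SLC11A2 is lowest at P5 (0.00325); FTH1 per FTL is highest in muscle (2.33).

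The other genes of metal handling, on lists written with earlier results of these data known, numbered 90 with a row. They include MTF2, a chromatin protein rather than a metal handling gene, which was called higher at both passages than in intestine. Of their rows, 71 had at least 50 reads in P5 organoids or intestine, with 19 called higher and 13 lower at P5, or 26.8% and 18.3%, beside 20.2% and 20.2% of all rows. At P10 against intestine, 15 of 73 were higher and 20 lower, or 20.5% and 27.4%, beside 25.5% and 23.6%. Between the passages, 2 of 73 were higher at P10 and 14 lower, or 2.74% and 19.2%, beside 12.6% and 12.2% of all rows. The counts per list that follow include the members.

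Of the genes of iron uptake and reduction, 9 had enough reads, and at P5 against intestine 2 were higher and 5 lower (20.2% and 20.2% of all rows). SLC46A1, the folate and haem carrier, had 2409 reads in intestine, 769 at P5 and 373 at P10, a log2 difference of -1.52 between the passages. SLC39A14, which carries iron and zinc, had 2510 reads in intestine, 340 at P5 and 816 at P10 (log2 difference -2.70 at P5). SLC39A8, a related carrier, stood the other way at 23, 61 and 169 reads (2.44 at P5), and the metalloreductase STEAP2 had 234 reads at P5 and 151 at P10 (-1.05). SLC11A2 and SLC39A8 were therefore the importers higher at P5, while STEAP1, STEAP3, CYBRD1, SLC46A1 and SLC39A14 were lower.

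In the transferrin cycle, 3 of 4 genes were higher at both passages than in intestine and none was lower, beside 20.2% of all rows higher at P5 and 25.5% at P10. TF, transferrin itself, a plasma protein made chiefly by the liver, had 190 reads at P5, 546 at P10, 10 in intestine and 0 in muscle (log2 difference from intestine 5.29 at P5 and 6.27 at P10). HFE, a partner of the transferrin receptor, had 42, 53 and 60 reads in the gut libraries (1.37 at P5). Its calls came with quantile normalisation and were not 2-fold in CPM, where the ratio to intestine was 1.65 at P5 (1.08 to 2.53) and 1.43 at P10 (0.9496 to 2.18). LTF, lactoferrin, differed by -0.08 at P5 and -0.34 between the passages. Transferrin RNA was thus far higher in both organoid libraries than in the intestine library.

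Among the storage genes, NCOA4, the receptor that delivers ferritin for breakdown, was lower in the organoids, and FTL at P5 was the storage gene called higher. NCOA4 had 2166 reads in intestine, 596 at P5 and 704 at P10, a log2 difference of -1.71 at P5. The iron chaperones PCBP1 and PCBP2 lay within 2-fold, at -0.74 and -0.22 at P5 and 0.10 and 0.26 between the passages. FTMT, mitochondrial ferritin, had no reads in any library.

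The export list had 6 genes with enough reads. At P5 against intestine 2 were higher and 1 lower, beside 20.2% and 20.2% of all rows. Between the passages 4 were lower at P10 (SLC40A1, CP, FLVCR1 and ABCG2) and none higher, beside 12.2% and 12.6%. CP, ceruloplasmin, the plasma counterpart of HEPH, had 664 reads in intestine, 121 at P5 and 55 at P10 (-2.16 at P5, -1.32 between the passages). FLVCR1, a haem and choline transporter, had 145, 335 and 140 reads (1.68 and -1.64). HEPH lay just short of 2-fold, so all the export genes called between the passages moved the same way as SLC40A1.

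Of the genes that sense iron, HIF1A was higher at P5 (1157 reads against 391, log2 difference 1.79) and FBXL5, which targets iron regulatory proteins for degradation when iron is plentiful, was lower (217 against 747, -1.53). ACO1, the iron regulatory protein that doubles as cytosolic aconitase, was 1.003 higher at P5 and -0.48 between the passages, and ARNT, partner of the hypoxia factors, was -1.40 between the passages on 35 and 87 reads. EPAS1, the hypoxia factor known to induce SLC11A2, CYBRD1 and SLC40A1, had 381 reads in intestine, 188 at P5 and 283 at P10. It lay within 2-fold between the gut libraries. HAMP, the iron hormone hepcidin, had 10 reads in intestine and 0 elsewhere. EPAS1, HAMP, FTMT and MTF1 were named after their values were seen.

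The zinc lists held 12 importers and 6 exporters with enough reads. Of the importers, 3 were higher and 3 lower at P5, close to the 20.2% and 20.2% of all rows. Between the passages 1 was higher and 1 lower, beside 12.6% and 12.2%: SLC39A13 with 109 reads at P5 and 398 at P10 (1.27), and SLC39A1 with 380 and 188 (-1.44). Of the exporters, SLC30A10, known to export manganese, had 91 reads in intestine, 201 at P5 and 0 at P10, at least 87.4-fold lower in CPM than at P5 against the floor of 3 reads at P10. SLC30A4 had 364, 312 and 160 reads (-1.38 between the passages), and SLC30A9 lay within 2-fold (0.71 and 0.15). SLC39A4 and SLC30A10 shared the order P5 above intestine, and only the latter was at 0 at P10.

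Metallothioneins other than MT2A were also low in the gut. MT1A had 19 reads in intestine, 4 at P5, 1 at P10 and 56 in muscle, and MT3, known from brain, had 5, 0, 0 and 95. MT1E had 2 rows, with 30 and 46 reads in intestine, 9 and 18 at P5, 23 and 132 at P10, and 7 and 0 in muscle. The second was 2.13 higher at P10 than at P5 on the log2 scale. The zinc sensor MTF1 had 206 reads in intestine, 241 at P5 and 305 at P10, within 2-fold in each gut comparison, and MTF2, a chromatin protein that shares only part of the name, was 1.19 higher at P5.

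**Figure D4:**
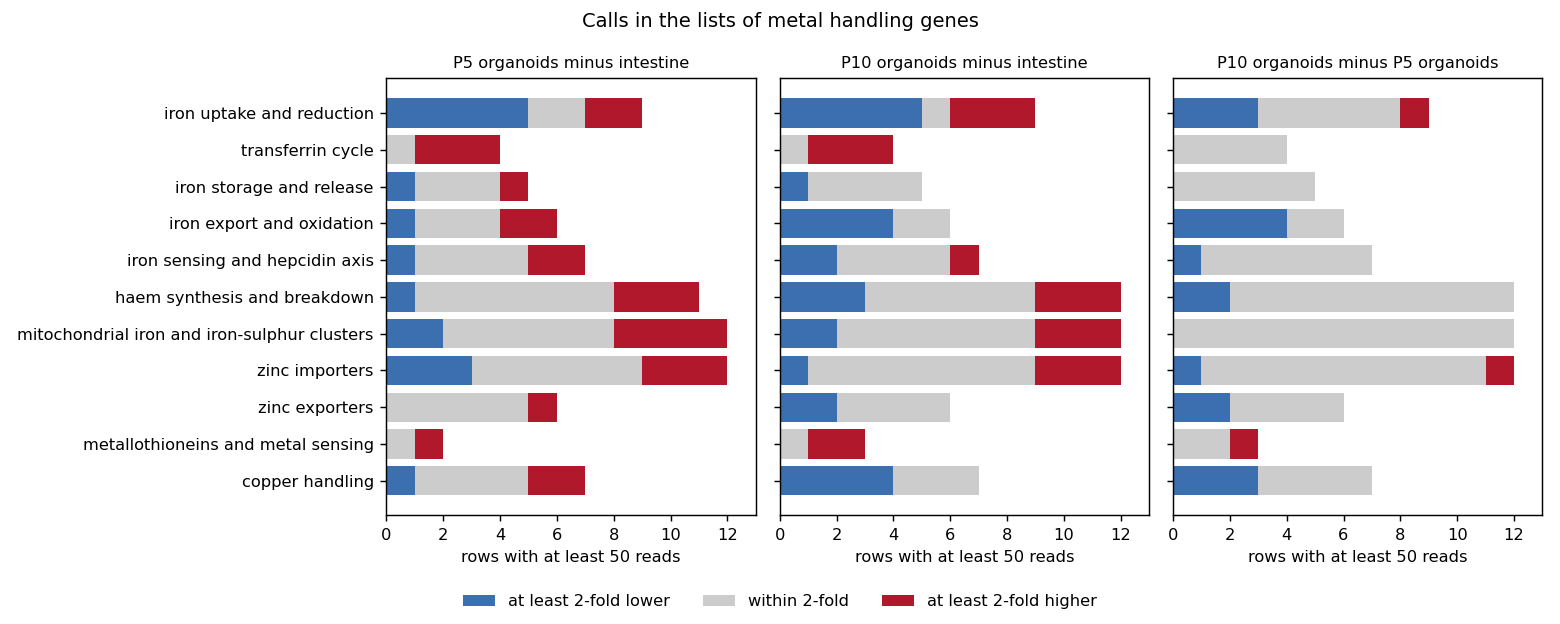
Number of rows called at least 2-fold lower, within 2-fold or at least 2-fold higher in each list of metal handling genes, among rows with 50 or more reads in 1 of both libraries, for the 3 comparisons of the gut libraries. Transferrin cycle genes are higher in 3 of 4 rows at both passages against intestine, beside 20.2% of all rows at P5 and 25.5% at P10. Export genes are lower in 4 of 6 rows at P10 against intestine (23.6% of all rows) and against P5 (12.2%). The genes differ: HEPH is called only against intestine and FLVCR1 only between the passages.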

How the data were processed

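RNA of 4 bovine samples was sequenced from its 3′ ends (QuantSeq) as single reads of 75 bases. The authors used Bowtie2 for alignment and Bedtools for counting, kept reads with multiple alignments, and deposited whole-number counts per gene symbol without normalisation. The genome build and annotation are not given in the sources used here, so no coordinates are printed. Counts were not divided by gene length, and levels are not compared between genes. All 10 symbols are current in RefSeq ARS-UCD2.0.

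The 22200 rows with a read in any of the 4 libraries were quantile-normalised, tied counts sharing a mean rank, and put on the scale log2(value + 1). Exact Poisson bounds of each count were carried through the normalisation of its library and combined into intervals of differences. Ratios have exact conditional (Clopper-Pearson) intervals. Alternatives were CPM with and without RN18S1, TMM and upper-quartile factors (edgeR 4.0.16), size factors of DESeq2 1.42.0, pseudocounts of 0.1 and 5, a filter at 10 reads and rows summed by symbol. Scaling to epithelial marker reads was added after seeing the data.

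The members and all lists (11 of metal genes, 9 of cell markers) were chosen with earlier results of these data known. The genes named are the members and, per metal list, the 2 others with at least 50 reads in any library with the largest differences at P5 against intestine and the 2 with the largest between the passages, of which 1 is not reported here. Python 3.11.15 and R 4.3.3 were used, and the procedure was tested on simulated data.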

Additional observations from a re-analysis of the deposited data

How the results depend on the processing

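Each group has 1 library, so no replicate could be left out and biological spread is unknown. No paired analysis was possible because each group has 1 library and no test was made. Over the 10 members, 6 comparisons and 10 alternatives (the last for the 3 gut comparisons only), 392 of 570 values moved by no more than counting error, 146 moved further and 32 changed sign from a value past counting error. In another 18, counted among the other values, the sign changed from a value within counting error, for SLC40A1, SLC30A1 and MT2A at P5 minus intestine and TFRC at P5 minus muscle. Pseudocounts of 0.1 and 5, the filter at 10 reads and rows summed by symbol moved none of their 60 values each beyond counting error.

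The number of members called higher at P10 than in intestine was 2 with quantile normalisation, 4 with CPM, TMM, upper quartile, DESeq2 size factors and CPM without RN18S1, and 0 per epithelial marker read. Of all rows, 25.5% were called higher with quantile normalisation, 21.1% to 26.7% under those other scalings and 5.29% per epithelial marker read. Per epithelial marker read, 1 member was higher and 5 lower at P5, beside 2.55% and 80.3% of all rows. For intestine minus muscle, CPM gave 6 higher and 1 lower, beside 56.9% and 9.71% of all rows. CPM without RN18S1 gave 5 and 1, beside 48.9% and 11.99% of all rows. P5 organoids minus muscle had 3 higher with upper quartile and DESeq2 size factors (30.7% and 31.3% of all rows), and P10 organoids minus muscle 1 lower with CPM (14.1%).

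These changes of sign were seen, and the cause was not tested. HEPH at P5 minus intestine was 0.092 in CPM and 0.10 without RN18S1. FTL at P10 minus P5 was 0.33 in CPM, 0.26 with TMM, 0.22 with upper quartile, 0.26 with DESeq2 size factors, 0.26 without RN18S1 and 0.61 per epithelial marker read. SLC30A1 at P10 minus intestine was -0.23 with TMM, -0.24 with upper quartile, -0.23 with DESeq2 size factors, -0.051 without RN18S1 and -1.67 per epithelial marker read. FTH1 was 0.032 in CPM for intestine minus muscle, -0.50 with TMM, -0.63 with upper quartile and -0.60 with DESeq2 size factors for P5 organoids minus muscle, and -0.089 with upper quartile and -0.015 with DESeq2 size factors for P10 organoids minus muscle. TFRC at P10 minus muscle was 0.87 in CPM and 0.49 without RN18S1. Division by epithelial marker reads shifted the median of all rows to -1.86 at P5 and -1.46 at P10 against intestine, and P5 minus intestine was then -0.53 for TFRC, -1.33 for FTH1, -1.06 for FTL and -0.26 for SLC39A4. P10 minus intestine was then -0.34 for SLC11A2, -0.40 for TFRC, -0.40 for FTH1, -0.45 for FTL, -0.87 for SLC39A4 and -1.41 for MT2A, and P10 minus P5 was 0.13 for TFRC.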

Other observations

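Copper handling genes, outside the iron and zinc lists, held the passage difference closest in size to that of SLC40A1 among the genes named. SLC31A1, the copper importer CTR1, had 11425 reads at P5, 1815 at P10, 2944 in intestine and 261 in muscle, a log2 difference of 2.27 at P5 against intestine and -3.28 between the passages. SLC31A2, its relative, had 109, 56, 67 and 47 reads in that order (1.55 and -1.16). Of 7 copper genes, 2 were at least 2-fold higher and 1 lower at P5 than in intestine (20.2% and 20.2% of all rows), and 0 were higher and 3 lower at P10 than at P5 (12.6% and 12.2%).

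In the haem list, BLVRB, biliverdin reductase B, had 1132 reads in intestine, 2493 at P5 and 5105 at P10 (1.31 at P5 against intestine), and ALAD, an enzyme of haem synthesis, had 407, 1025 and 938 (1.56). ALAS1, which catalyses the first step of haem synthesis, had 824, 1300 and 453 reads (-1.99 between the passages), and HMOX2, haem oxygenase 2, 973, 798 and 549 (-1.01). Of the mitochondrial genes, SLC25A37, the iron importer mitoferrin 1, had 2 rows with 12 and 1759 reads in intestine and 100 and 3128 at P5 (4.10 and 1.0015). The ferredoxin FDX2 was 1.31 higher at P5 than in intestine on 148 and 98 reads, and FDX1 differed by -0.90 between the passages. In CPM the FDX2 ratio of P5 organoids to intestine was 1.97 (1.52 to 2.57), just under 2-fold.

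Chosen after their values were seen, the alpha globin rows HBA and HBA1 had 21 and 18 reads in intestine, 177 and 145 at P5 and 249 and 213 at P10, while HBB, beta globin, had 3 reads in intestine and 0 in the organoids. HJV, a co-receptor of the hepcidin pathway known from muscle and liver, had 1002 reads in muscle and 0 in the other 3 libraries.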
